A study of Arabidopsis thaliana with 8 samples.

Results

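The 9 genes described here belong to the DUO1 pathway of the pollen sperm cells. They were selected by locus, as the rows for DUO1, DAZ1, DAZ2, DAZ3, DAF1, HAP2, GEX1, GEX2 and MGH3, and make up 9 of the 28775 genes in the authors' deposited table. Of the 9, 8 had reads in both treatments and GEX2 was listed at 0 in both. The series sequenced mRNA from floral buds of mixed stages of Arabidopsis thaliana, strain L er, carrying the 35S:GR-RBE transgene. In these plants a constitutive viral promoter drives the petal regulator RABBIT EARS (RBE) as a fusion with the hormone-binding region of the glucocorticoid receptor. The fusion protein stays in the cytoplasm until dexamethasone binds it. Buds of the DEX group received 10 µM dexamethasone in 0.1% ethanol and 0.015% silwet for 4 h, and buds of the mock group received 0.1% ethanol and 0.015% silwet for 4 h. Each group comprised 4 libraries, made as 2 technical replicates of each of 2 biological replicates. Both groups carry the transgene, so an effect of dexamethasone itself and one of the activated fusion cannot be told apart.

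Pollen forms when a microspore divides asymmetrically into a large vegetative cell, which grows the pollen tube, and a small generative cell, which divides again into the sperm cells. DUO1 is a MYB transcription factor made in this male germline. It is needed for the division of the generative cell and switches on genes that give sperm cells their identity and their ability to fuse with the egg and central cell. Its transcripts are made in pollen past the asymmetric division, and buds of mixed stages also hold anthers that have not reached that point.

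DUO1 recognises MYB sites of the forms AACCGC and AACCGT, and several of the 9 genes are its known targets. The promoters are shown because these letters recurred in them. Both motifs were searched on both strands in the 300 bases before the annotated start of each gene in the RefSeq annotation of TAIR10.1. The forms differ in their last letter, and AACCGC can overlap its own reverse complement by their GC ends. Of the 9 windows, 8 held at least 1 of the motifs, against 12.1% of the windows of 26709 protein-coding genes. AACCGC was found in 6 of 9 windows, against 3.98% of all windows, and AACCGT in 4 of 9, against 8.73%. The 2 or more matches found in 4 of 9 windows (DUO1, DAF1, GEX2 and MGH3) occurred in 1.48% of all windows. GEX1 was the gene without a match. A match describes these letters only, and the motifs were chosen with the known binding of DUO1 in mind. Because known targets are among the 9 genes, the shares are a description and no independent test of binding. Of the windows that overlap no other annotated gene, that of DAZ2 is not shown, and its match began 159 bases before the start. The windows below, which also overlap none, are written 5′ to 3′ toward the gene, with matches on either strand in capitals. They lie at chr3:22343577-22343876 (minus strand, DUO1), chr4:16923019-16923318 (plus strand, DAZ3), chr3:23031231-23031530 (plus strand, DAF1), chr4:7062955-7063254 (plus strand, HAP2) and chr1:6904663-6904962 (plus strand, MGH3).
DUO1: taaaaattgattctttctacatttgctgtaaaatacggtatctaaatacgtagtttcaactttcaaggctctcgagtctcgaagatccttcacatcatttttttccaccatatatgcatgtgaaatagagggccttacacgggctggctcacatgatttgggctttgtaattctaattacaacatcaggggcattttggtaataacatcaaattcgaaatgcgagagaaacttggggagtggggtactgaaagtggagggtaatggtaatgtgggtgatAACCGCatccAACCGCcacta
DAZ3: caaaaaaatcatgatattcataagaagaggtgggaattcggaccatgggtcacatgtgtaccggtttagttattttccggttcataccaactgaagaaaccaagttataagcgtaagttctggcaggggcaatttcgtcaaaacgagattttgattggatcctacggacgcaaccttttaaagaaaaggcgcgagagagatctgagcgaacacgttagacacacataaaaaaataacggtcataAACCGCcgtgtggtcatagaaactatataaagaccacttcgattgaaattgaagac
DAF1: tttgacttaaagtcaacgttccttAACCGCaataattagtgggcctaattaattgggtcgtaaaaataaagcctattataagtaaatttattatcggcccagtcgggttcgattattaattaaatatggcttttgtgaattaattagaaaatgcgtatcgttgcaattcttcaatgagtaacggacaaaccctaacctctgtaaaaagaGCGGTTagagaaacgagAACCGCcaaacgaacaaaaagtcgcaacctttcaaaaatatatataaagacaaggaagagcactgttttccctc
HAP2: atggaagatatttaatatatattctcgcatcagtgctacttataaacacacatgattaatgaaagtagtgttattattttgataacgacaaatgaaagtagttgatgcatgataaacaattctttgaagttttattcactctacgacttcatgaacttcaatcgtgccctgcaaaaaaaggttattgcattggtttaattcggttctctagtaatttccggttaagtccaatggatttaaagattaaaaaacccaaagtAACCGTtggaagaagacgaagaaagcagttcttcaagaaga
MGH3: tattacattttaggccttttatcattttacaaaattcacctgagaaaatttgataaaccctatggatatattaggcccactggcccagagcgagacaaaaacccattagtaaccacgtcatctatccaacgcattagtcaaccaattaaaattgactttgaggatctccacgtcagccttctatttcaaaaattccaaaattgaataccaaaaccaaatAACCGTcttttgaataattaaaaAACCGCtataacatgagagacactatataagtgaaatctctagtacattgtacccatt
In DAF1, which had the most reads of the 9 genes, the matches began 276, 91 and 74 bases before the start. In MGH3 they began 81 and 58 bases before it, in DAZ3 56 bases and in HAP2 41 bases before it. In DUO1 itself they began 21 and 11 bases before the start.

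The deposited values give 1 ratio per gene and were taken as pooled over all libraries of a treatment, so no difference below has a replicate check. Read numbers were inferred from a deposited log-likelihood score, which gave totals over genes of 102142647 reads for DEX and 119056377 reads for mock. Errors written with ± are standard errors of the log2 ratio of DEX over mock from read counting alone, and intervals are 95% intervals of the same kind. A gene was called higher or lower where the authors' posterior probability of the opposite direction was under 0.05. RBE had 21775 reads in DEX and 28895 in mock, and in these values the native gene and the transgene cannot be told apart.

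All 8 measured DUO1 pathway genes had a ratio above 1, and 7 of them were called higher in DEX, of which DAZ1 had a counting interval that includes 0. None was called lower. Of the 24945 genes with reads in both pools, 36.4% were called higher and 20.8% lower. After setting the genes' median ratio to 1, these shares were 25.4% and 29.5%, and 6 of the 8 genes were called higher. With totals taken without the 1% most abundant genes, the shares were 33.2% and 22.7%, and the same number of members, 7, was called higher. All 8 genes had at least 200 reads over both pools, and of all genes with that many reads 41.8% were called higher and 24.5% lower. The median log2 ratio of the 8 genes was 0.36, or 1.28-fold, against 0.05 for all genes. The posterior follows counting error, so these calls describe the pooled libraries and not the spread between plants. Ratios varied across genes by more than counting error: at a depth of 3000 to 10000 reads per gene the SD over genes was 0.226 on the log2 scale, beside a median counting error of 0.0386. In buds, more pollen at a late stage and more transcript per pollen grain cannot be told apart.

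**Figure D1:**
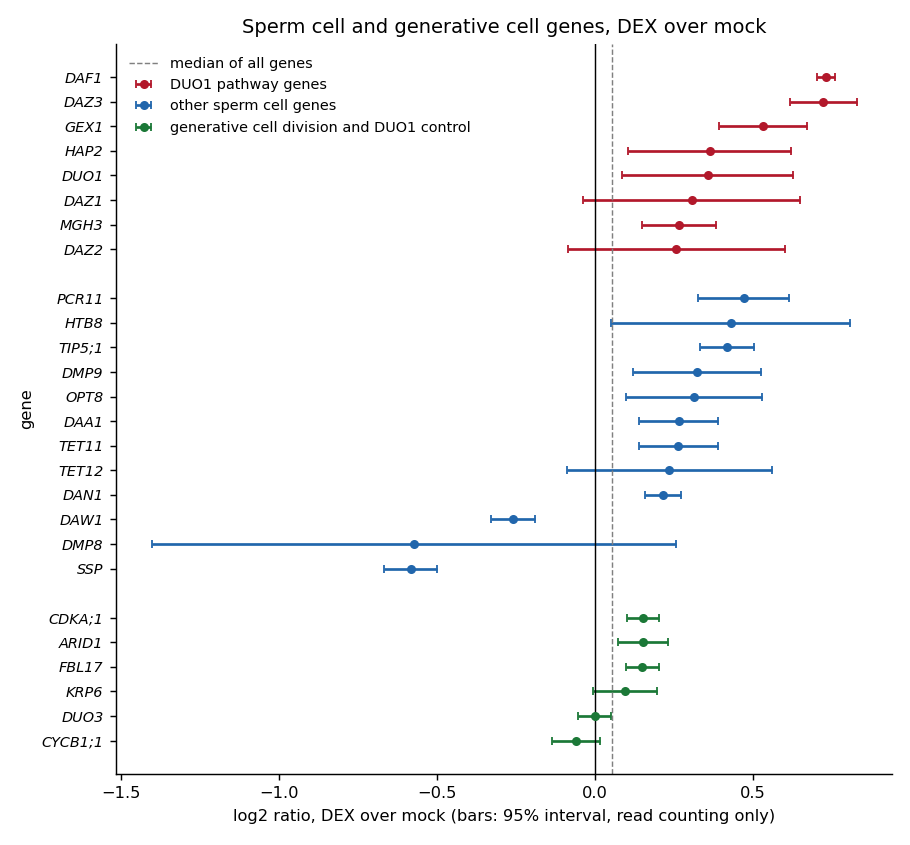
Log2 ratio of DEX over mock for the 8 measured DUO1 pathway genes (red), other sperm cell genes (blue) and genes of generative cell division (green), with bars for the 95% counting interval and a dashed line at the median of all genes. The 8 DUO1 pathway genes lie between 0.26 and 0.73, and SSP and DAW1 are the called genes on the left of 0.

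The regulators at the head of the pathway were scarce. DUO1 (AT3G60460, chromosome 3, 22342321 to 22343576, 3 exons) had 229 reads in DEX and 208 in mock. Scaled to its 1087 exonic bases, its level was 2.06 RPKM (reads scaled to the length of the exons and the depth of the pool) in DEX and 1.61 RPKM in mock. Its log2 ratio was 0.36 ± 0.14, at a posterior of 0.997 that DEX was higher in the authors' deposited table. Its counting interval, from 0.09 to 0.63, lay above 0. DUO1 shares 0.92% of its exonic bases with AT3G60450 on the other strand, and reads there cannot be told apart without strand.

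DAZ1 and DAZ2 encode zinc finger repressors that act together downstream of DUO1 in the division of the generative cell. DAZ1 (AT2G17180, chromosome 2, 7476662 to 7477683) had 140 reads in DEX and 131 in mock, which gave a log2 ratio of 0.31 ± 0.18. DAZ2 (AT4G35280, chromosome 4, 16787280 to 16788283) had 137 reads in DEX and 133 in mock, which gave a log2 ratio of 0.26 ± 0.18. DAZ1 was called higher at a posterior of 0.958 and DAZ2 was not called at 0.935. The limit on the posterior is one-sided, and the 95% counting interval of DAZ1, from -0.04 to 0.65, includes 0, as does that of DAZ2, from -0.09 to 0.60. The log2 ratios of DAZ1 and DAZ2 differed by 0.05, with an interval from -0.44 to 0.53. Each had 1 exon, and their best mutual match was 69.0% identical over 683 bases. DAZ1 was not called after scaling by the median ratio, nor at a posterior limit of 0.01, where 29.1% of all genes were called higher, 17.1% lower and 6 of the members higher.

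DAZ3, a related zinc finger gene, and DAF1, an F-box gene activated by DUO1, had the 2 highest ratios of the members. DAZ3 (AT4G35700, chromosome 4, 16923319 to 16924334) had 1688 reads in DEX and 1192 in mock, or 1.65-fold more after scaling, a log2 ratio of 0.72 ± 0.05. DAF1 (AT3G62230, chromosome 3, 23031531 to 23033146) had 24081 reads in DEX and 16886 in mock, or 1.66-fold, a log2 ratio of 0.73 ± 0.01. These were the 2 members called at 1.5-fold or more, a limit that 4.45% of all genes passed upward and 2.91% downward. Their log2 ratios differed from each other by 0.01, with an interval from -0.10 to 0.12. Among the 19983 genes with 200 reads or more, 1.301% had a ratio as high as that of DAF1 and 1.37% as high as that of DAZ3. No near-identical copy of either gene was found, and neither overlaps another listed gene.

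The genes of gamete union were called higher by smaller ratios. HAP2 (AT4G11720, chromosome 4, 7063255 to 7066878, 17 exons), the sperm membrane protein that drives gamete fusion, had 253 reads in DEX and 229 in mock. Its log2 ratio was 0.36 ± 0.13, at a posterior of 0.9975 that DEX was higher. GEX1 (AT5G55490, chromosome 5, 22478712 to 22481937), a membrane protein of both gametophytes linked to nuclear fusion, had 923 reads in DEX and 744 in mock. Its log2 ratio was 0.53 ± 0.07, the third highest, and 3.41% of the genes with 200 reads or more reached it.

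MGH3 (AT1G19890, chromosome 1, 6904963 to 6906028, 4 exons) encodes a histone H3 variant of the male germline. It had 1181 reads in DEX and 1143 in mock, which gave a log2 ratio of 0.27 ± 0.06. The log2 ratio of DAZ3 exceeded that of MGH3 by 0.46, with an interval of the difference from 0.30 to 0.61. The closest other histone gene, AT1G75600, was 81.9% identical over 420 bases. Of the genes with 200 reads or more, 13.1% reached the ratio of MGH3.

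The members did not share 1 ratio within counting error, and genes in general did not either. At 3000 to 10000 reads per gene the SD of the log2 ratio over genes was 0.226. Of the 28 pairs among the 8 genes, 13 had a difference whose counting interval lay beyond 0. DAF1 or DAZ3 took part in 12 of these, which were all 12 pairs of these genes with another member, and the remaining pair was GEX1 and MGH3. The smallest of the 12 differences were those from GEX1, 0.20 for DAF1 and 0.19 for DAZ3, the latter with an interval from 0.02 to 0.37. The intervals were not adjusted for the number of pairs, and DAF1 and DAZ3 were singled out after their ratios were seen. For HAP2, DUO1, DAZ1, MGH3 and DAZ2 the log2 ratios lay between 0.26 and 0.36, and none of their pairs differed beyond counting error. The depth limits this: the interval between HAP2 and DUO1, for example, ran from -0.37 to 0.38.

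**Figure D2:**
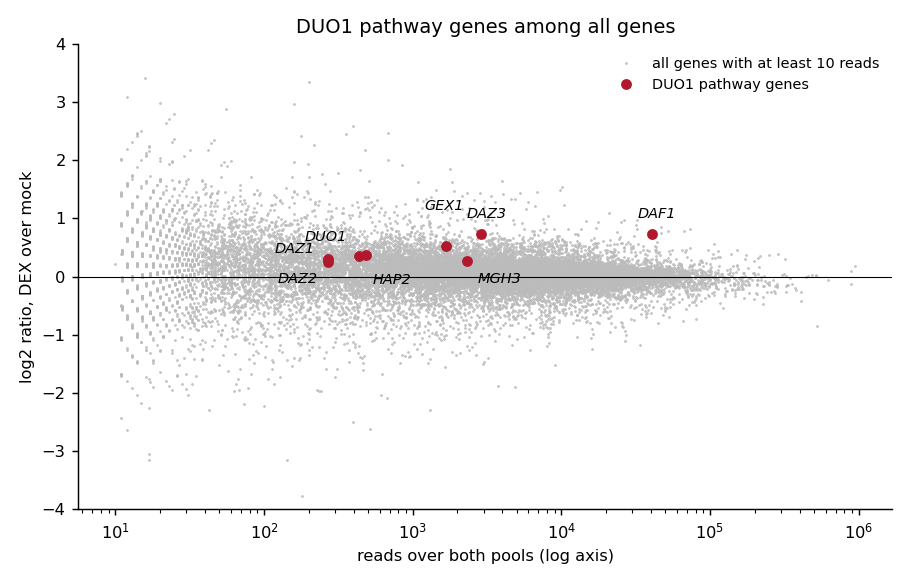
Log2 ratio of DEX over mock against reads over both pools (log axis) for genes with reads in both pools and at least 10 reads (grey) and the 8 DUO1 pathway genes (red). The 8 genes lie above 0 over a range from 270 reads for DAZ2 to 40967 for DAF1.

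Levels per length spanned 2 orders of magnitude. DAF1 stood highest, at 145.9 RPKM in DEX and 87.8 RPKM in mock. DAZ3 stood at 16.3 RPKM in DEX and 9.85 RPKM in mock, and MGH3 at 16.0 RPKM in DEX and 13.3 RPKM in mock. These 2 genes could not be ordered in DEX, where their intervals overlapped, whereas MGH3 was the higher in mock. GEX1 followed at 3.93 RPKM in DEX and 2.72 RPKM in mock, and DUO1 came after it. DAZ1 stood at 1.34 RPKM in DEX and 1.08 RPKM in mock, and DAZ2 at 1.33 RPKM in DEX and 1.11 RPKM in mock. HAP2 was lowest, at 1.102 RPKM in DEX and 0.86 RPKM in mock, and its interval overlapped that of its neighbour in the order in both pools. DAF1 was 132-fold above HAP2 in DEX and 103-fold in mock.

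**Figure D3:**
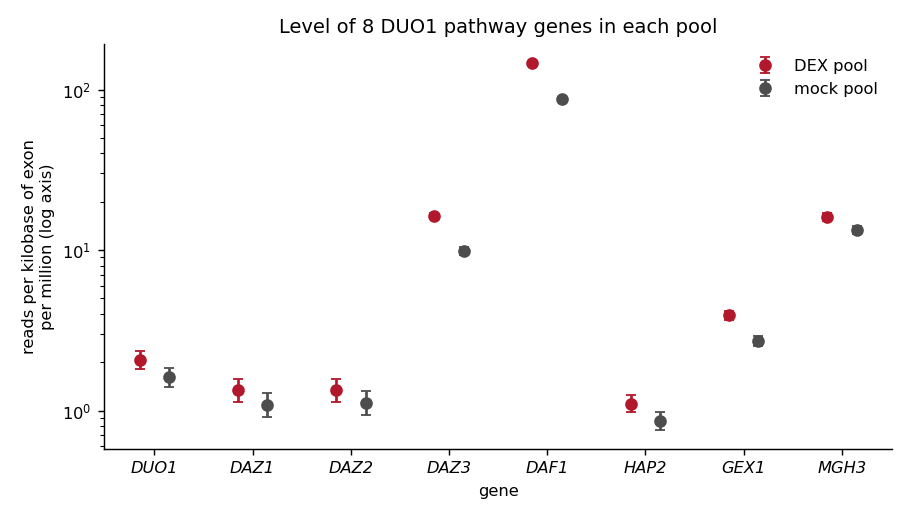
Level of the 8 measured DUO1 pathway genes in RPKM (log axis) in the DEX pool (red, left of each pair) and the mock pool (grey), with 95% counting intervals. DAF1 lies far above the others in both pools, and each gene has its DEX value above its mock value.

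DAF1 supplied most of the reads of the pathway, 84.1% in DEX and 81.7% in mock. The summed level of the 9 genes was 280.3 RPM (reads scaled to the depth of the pool only) in DEX and 173.6 in mock, 1.61-fold higher. Without DAF1 the sums were 44.6 RPM in DEX and 31.7 in mock, 1.403-fold higher. With DAZ3 also left out, they were 28.0 in DEX and 21.7 in mock, 1.29-fold higher, and the median log2 ratio of the remaining 6 genes was 0.33.

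GEX2 (AT5G49150, chromosome 5, 19924354 to 19929256, 17 exons), a sperm surface protein for attachment to the female gametes, was listed at 0 in both pools. In the RefSeq annotation of TAIR10.1 it lies within the non-coding RNA gene AT5G49152 on the same strand (19924322 to 19929377). Exons of that gene cover 96.7% of the exonic bases of GEX2. The authors' TAIR10 gene models were not at hand, so the overlap in them is not known. AT5G49152 was listed with 239 reads in DEX and 239 in mock, which gave a log2 ratio of 0.22 ± 0.13 that was not called at a posterior of 0.949. Of 342 listed genes with at least 95% of their exonic bases under exons of other listed genes, 40.1% were listed at 0 in both pools. The share was 8.22% among the other 27659 annotated genes. Among protein-coding genes alone, the shares were 29.9% of 281 overlapped genes and 5.97% of the other 26429. Whether reads of GEX2 were assigned to AT5G49152 or to neither was not tested, and the 0 is no measure of GEX2 expression. The pollen tube receptor gene BUPS1, which overlaps no listed gene in this annotation, was also listed at 0.

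**Figure D4:**
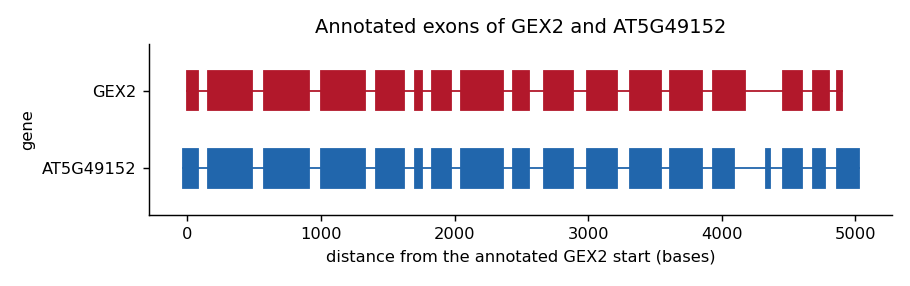
Annotated exons (boxes) of GEX2 (red, above) and AT5G49152 (blue, below) along the distance from the annotated GEX2 start in bases. The exons coincide over most of their length, and 96.7% of GEX2 exonic bases lie in exons of AT5G49152.

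Of 12 other genes known from sperm cells, 8 were called higher and 2 lower, also after scaling by the median ratio, and the median log2 ratio was 0.27. For this and all lists below, the shares over all genes with reads in both pools were 36.4% higher and 20.8% lower. Under scaling by the median ratio they were 25.4% and 29.5%. The summed level of the 12 genes was 154.8 RPM in DEX and 148.6 RPM in mock, a ratio of 1.04. TIP5;1, an aquaporin gene of pollen, had 2349 reads in DEX and 2049 in mock, which gave a log2 ratio of 0.42 ± 0.04. DAN1, a further gene activated by DUO1, had 4864 reads in DEX and 4878 in mock, which gave a log2 ratio of 0.22 ± 0.03. SSP went the other way. This kinase-like gene, whose transcript sperm deliver to the zygote, had 1730 reads in DEX and 3020 in mock, which gave a log2 ratio of -0.58 ± 0.04. The second lower gene was DAW1, at -0.26 ± 0.04, which like DAN1 is known as a gene activated by DUO1. Both lower genes weigh in the summed level of the list. SSP held 16.9 RPM of it in DEX and 25.4 in mock, and DAW1 28.2 in DEX and 33.7 in mock. A sum without SSP and DAW1 was not computed. The genes not called were TET12 at 0.24 ± 0.17 and DMP8, with 18 reads in DEX, at -0.57 ± 0.42. DAW1, TET12 and DMP8 were named after their values were seen.

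The annotation in the authors' deposited table gave the term pollen sperm cell differentiation to 27 genes, among them 8 of the 9 members and not GEX1. This set was looked up after the data were seen, and 8 of its 19 other genes are also on the lists used here. Of these 19 genes, 12 were called higher and 4 lower. Under scaling by the median ratio 11 were higher and 5 lower. Their log2 ratios ran from -0.47 to 0.73, with a median of 0.22. Their summed level had the other sign than this median, with 824.0 RPM in DEX and 858.4 RPM in mock, a ratio of 0.96. CER3, named after its values were seen, had the most reads of these genes and the lowest ratio. It had 21572 reads in DEX and 34756 in mock, at -0.47 ± 0.01, and weighs heavily in this sum. A sum without CER3 was not computed.

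Genes that act before sperm identity had a lower median ratio. Of 6 genes for generative cell division and the control of DUO1, 4 were called higher and none lower. Under scaling by the median ratio 3 were higher and 2 lower. Their median log2 ratio was 0.12, and their summed level was 229.8 RPM in DEX and 215.9 RPM in mock. CDKA;1, the main cell cycle kinase, was at 0.15 ± 0.03, FBL17, an F-box gene that removes cell cycle inhibitors in the germline, at 0.15 ± 0.03, and ARID1, an activator of DUO1, at 0.15 ± 0.04. The other genes of the list had lower ratios. KRP6 was called higher at 0.10 ± 0.05, and DUO3, at 0.00 ± 0.03, and CYCB1;1, at -0.06 ± 0.04, were not called. KRP6, DUO3 and CYCB1;1 were named after their values were seen. CDKA;1 is also known to act in dividing cells outside pollen. For all genes of this list, the part of the reads that came from pollen was not measured.

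Markers of the other cell types in the buds differed in direction. Vegetative cell and pollen tube genes were called higher for 18 of 20 measured genes and lower for 1, PPME1, under either scaling, with a median log2 ratio of 0.33. Their summed level was 1736 RPM in DEX and 1370 in mock, 1.27-fold higher, and BUPS1 was the 1 gene of 21 listed at 0. VGD1, a pectin methylesterase of the pollen tube, was at 0.37 ± 0.01, the calcium pump gene ACA9 at 0.43 ± 0.02 and the arabinogalactan gene AGP6 at 0.29 ± 0.01. PPME1 was at -0.28 ± 0.03, and MYB97, at 0.14 ± 0.16, was not called. Both were named after their values were seen. The DUO1 pathway median was 0.36, and the difference between the lists was not tested. The part of the vegetative cell genes in the results on the DUO1 pathway was not tested.

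Tapetum and exine genes, from the layer that feeds young pollen, had 15 of 18 called higher and 1 lower, beside 36.4% and 20.8% of all genes. Under scaling by the median ratio 11 were higher and 3 lower. Their median log2 ratio was 0.12, and their summed level was 3970 RPM in DEX and 3718 in mock. EXL4 was at 0.18 ± 0.01, ACOS5 at 0.16 ± 0.01 and PKSA at 0.15 ± 0.01. A9, the gene called lower, was at -0.11 ± 0.02, and MS1 had the highest ratio, 0.57 ± 0.05. DYT1, at -0.39 ± 0.25, and TKPR1, at 0.01 ± 0.02, were not called. At high depth small ratios were called: CYP703A2, with 9362 reads in DEX and 10561 in mock, was called higher at 0.05 ± 0.02. A9, MS1, DYT1, TKPR1 and CYP703A2 were named after their values were seen. Meiosis genes, which mark younger anthers, had 1 of 8 called higher and 1 lower. Under scaling by the median ratio 0 were higher and 1 lower. Their median was also 0.12, with MMD1 at -0.33 ± 0.16 and ASY1 at 0.21 ± 0.11. Their summed level was 46.2 RPM in DEX and 45.1 in mock.

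Female gametophyte and floral organ genes did not share the direction of the DUO1 pathway. Of 6 genes of the egg cell and synergids, none was called higher or lower. Under scaling by the median ratio 0 were higher and 2 lower. All 6 had a ratio below 1, with a median log2 ratio of -0.18 and a summed level of 10.12 RPM in DEX and 11.3 in mock. The 5 floral organ identity genes, which mark the buds themselves, were called lower under either scaling, at a median of -0.13. SEP3 was at -0.43 ± 0.02, AP3 at -0.23 ± 0.02 and AP1 at -0.13 ± 0.02, and the list's summed level was 601.7 RPM in DEX and 676.9 in mock. Every list except these 2 had a median above that of all genes, 0.05.

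**Figure D5:**
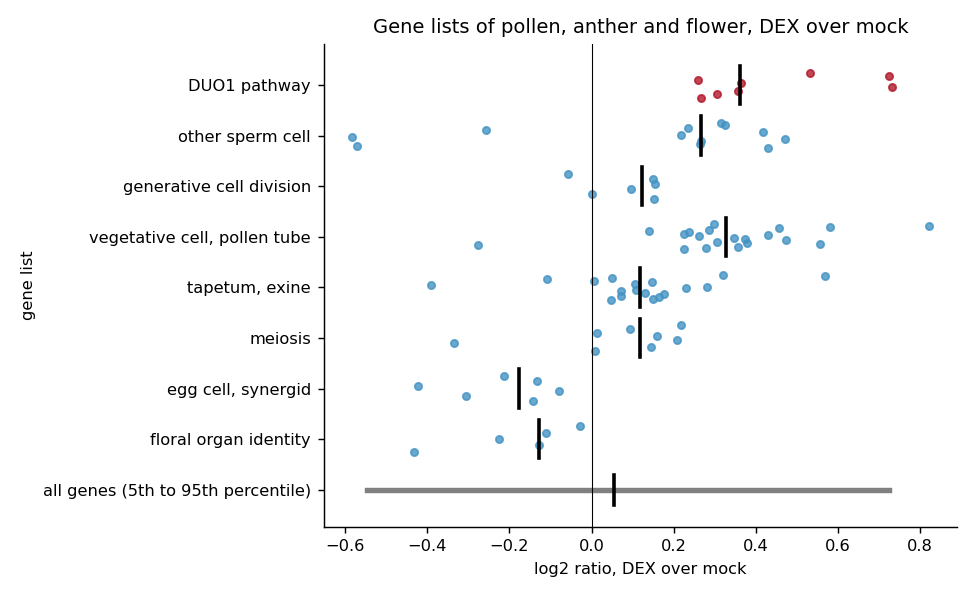
Log2 ratio of DEX over mock for each measured gene (dots) of the DUO1 pathway and 7 other gene lists, with black bars at list medians and a grey line for the 5th to 95th percentile of all genes, from -0.55 to 0.73. The DUO1 pathway and the vegetative cell genes have the highest medians, 0.36 and 0.33.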

How the data were processed

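The authors deposited 1 table of 28775 genes, with 1 value per treatment for each gene, per the file headers. The headers do not name libraries, so pooling over the 4 libraries of each treatment was inferred. TopHat 1.2.0, HTSeq 0.4.5p6 and TAIR10 are named in the submitters' processing notes, without roles. For each gene the deposited columns give a ratio to the lower treatment, which is set to 1, the authors' posterior probability of each direction as a fraction from 0 to 1, interval half-widths and a log-likelihood score. The half-widths were not used. Strand use and the removal of PCR copies were not given in the sources used here, so counting errors may be too small.

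Reads were inferred from the deposited score, taken as a Poisson log-likelihood, in which each treatment adds N ln(N/T) - N, where N is its reads for the gene and T its total. No source states this formula. It gave whole reads within 0.05 for 100% of the 908 genes with reads in 1 pool, and within 0.1 for 99.98% of the 8294 genes with up to 1000 reads in both. The normal score of the posterior rose with the ratio over its counting error with a slope of 1.00 across 8089 genes, so it holds no visible term for replicate spread. The median over genes with reads in both pools was 3154 reads.

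RPKM used the exonic length of the RefSeq annotation of TAIR10.1, which holds 28001 of the listed loci. Coordinates and promoters come from that build. Copies were sought with blastn 2.17.0, requiring 95% identity along 100 aligned bases. Counts per library were not at hand, so the planned count models gave way to the deposited posterior. Alternatives were a posterior limit of 0.01, a 1.5-fold limit, and scaling by the median ratio or by totals without the 1% most abundant genes. The members, the 7 other lists with 76 genes and the tests were chosen with earlier results of these data known. Named genes were all members and, per other list, up to 3 called genes for which the opposite direction had the least posterior, ties going to the larger ratio over its error. Read recovery and calls were also run on simulated data. These were built with the same formula and without replicate spread, so they cannot test the formula or the spread between plants. Scripts ran in Python 3.11.15 with SciPy 1.17.1, Matplotlib 3.10.9, pandas 2.3.3 and NumPy 2.4.6.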

Additional observations from a re-analysis of the deposited data

How the results depend on the processing

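No paired analysis was possible because each treatment has a single value per gene, and for the same reason leaving out a replicate, other count models and a filter on counts per library were not run. The 7 members called higher became 6 with the median of all ratios at 1, also 6 under a posterior limit of 0.01, DAZ1 losing its call in both cases, and 2 at 1.5-fold or more, a limit that leaves fewer genes by construction and keeps DAF1 and DAZ3. Members called lower stayed at 0 under all 4. The median log2 ratio of the members lay between 0.31 and 0.36 across both scalings, with members of 200 reads or more, without DUO1, which overlaps a gene by a few bases, and without DAF1 and DAZ3, the last added after seeing the data. All 8 ratios stayed above 1 under both scalings, which shift every log2 ratio alike, by 0.05 and 0.01. Levels of GEX1 moved within counting error with the length of the longest transcript, and the lengths of the other measured members were the same. Depth limits DUO1, DAZ1, DAZ2 and HAP2, with counting errors of 0.13 to 0.18.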
